A study of Homo sapiens with 4 samples.

Results

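The genes described here encode the NF-kappaB transcription factors and the proteins that hold them in check. There are 10 of them, of 22361 rows in the deposited table: the 5 subunits NFKB1, NFKB2, RELA, RELB and REL, the inhibitors NFKBIA and NFKBIE, and the target genes TNFAIP3, BIRC3 and TRAF1. Their rows were picked by gene symbol and not by their values, though earlier results of these data were known when the genes were listed. In the ARIEL knockdown libraries, REL, BIRC3, TNFAIP3 and NFKB1 fell, NFKBIA and RELB rose, and RELA, NFKB2, NFKBIE and TRAF1 did not pass the test.

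NF-kappaB factors are dimers of Rel-family proteins. In resting cells IkappaB proteins keep the dimers in the cytoplasm, and an IkappaB kinase complex (IKK) marks IkappaB for destruction when antigen receptors or tumour necrosis factor receptors are engaged. The freed dimers bind kappaB sites in DNA and switch on genes that include their own inhibitors, so that the response limits itself. In T cells the pathway runs from the antigen receptor through adaptors that include BCL10 and MALT1, and it is often active in T-cell leukaemia.

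The study sequenced 4 RNA libraries from Jurkat, an established T-lineage line derived from acute lymphoblastic leukaemia. The 2 control libraries came from cells carrying a lentiviral short hairpin RNA (shRNA) against GFP, a gene that human cells lack. The other 2 came from cells in which the hairpin targeted the long non-coding RNA ARIEL. Both groups therefore share infection and puromycin selection (0.7 µg/ml, 36 h or longer), and cells were collected 72 h after infection. How many hairpins were used against ARIEL is not given in the sources used here, and the model is 1 cell line. The sources do not state whether replicates are separate cultures, and the p-values then measure only the spread between these libraries, which may be technical.

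Values are regularised log (rlog) levels on the log2 scale. The transformation shrinks differences, those of low and noisy values most, so that they come out smaller than the underlying change. The deposited table also gives the authors' own log2 fold changes, which are quoted as folds where named. BIRC3, at a high level, differed by -0.29 in rlog and by -0.52 in the authors' log2 fold change. For RELB, at a lower level, these were 0.23 and 0.55, so rlog differences at unlike levels are not on a common scale. Differences were tested with limma, two-sided, over the 14601 genes whose mean rlog reached log2 of 10, and called at a Benjamini-Hochberg adjusted p under 0.05. No read counts were part of the table, so depth is unknown.

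The labelled cells carried their defining markers: all 12 T-cell markers examined had mean rlog levels between 12.24 and 16.73. Their levels summed on the linear scale ran from 319898 to 322161 in control libraries and from 307752 to 311716 after knockdown. Of the 12, 2 were called higher and 5 lower, beside 22.1% and 22.4% of all tested genes. Among 6 B-cell markers MS4A1 was listed at 0, while CD79A rose by 0.29 ± 0.04 (SE), and the summed level was 2636 to 2745 in control and 3166 to 3191 in knockdown libraries. The part of these marker shifts in the results was not tested. Myeloid markers CSF1R and SPI1 and epithelial markers EPCAM and CDH1 were listed at 0. Sums over the 7 myeloid markers were 43.0 to 44.3 in control and 42.2 to 42.7 in knockdown libraries, and over the 6 epithelial markers 28.0 to 28.5 and 29.2 to 29.8. Among the latter KRT8 was called higher by limma (adjusted p = 0.0294), but not with the trend on transcript GC content and length removed (limma adjusted p = 0.293) or in the authors' deposited table (adjusted p = 0.122). The locus XLOC_005968 on chromosome 10 was taken here as ARIEL from background knowledge and a check of its levels, since the table does not name it. Its rlog levels were 12.02 and 11.91 in control and 10.58 and 10.55 in knockdown libraries, 6.50-fold lower in the authors' deposited table. Because these levels were part of the identification, the fall is not separate evidence that ARIEL was depleted.

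Stretches of promoter that hold a match to the kappaB consensus are shown first, because they mark which of these genes carry the letters that NF-kappaB dimers are known to read. They come from RefSeq on GRCh38.p14, in windows from 250 bases before to 50 bases after an annotated start, and are written on the gene's strand with the match in capitals. Matches were sought on both strands, and a match on the opposite strand reads as its reverse complement.
REL, chr2:60881517-60881547, plus strand: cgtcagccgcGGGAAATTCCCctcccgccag
NFKB1, chr4:102501300-102501329, plus strand: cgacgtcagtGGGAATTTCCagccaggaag
NFKB2, chr10:102394461-102394491, plus strand: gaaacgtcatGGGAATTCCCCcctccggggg
NFKBIA, chr14:35404811-35404840, minus strand: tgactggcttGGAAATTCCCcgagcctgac
TNFAIP3, chr6:137867182-137867211, plus strand: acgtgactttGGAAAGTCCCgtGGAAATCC
BIRC3, chr11:102317275-102317304, plus strand: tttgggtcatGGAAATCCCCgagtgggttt
BIRC3, chr11:102317339-102317368, plus strand: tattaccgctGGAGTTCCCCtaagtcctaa
The matched letters ended 37 bases before the start in REL, 40 in NFKB1, 72 in NFKBIA and 190 and 126 in BIRC3. NFKB2 held 4 separate stretches of matched letters in 2 of its 3 windows, and only the stretch farthest upstream in the first of these is shown. The letters of REL and of the NFKB2 stretch shown matched on both strands. The TNFAIP3 stretch shown here stops inside a further match, which is whole in the longer stretch below.

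TNFAIP3 and NFKBIA, which moved in opposite directions, are shown over the whole 250 bases before their starts. The TNFAIP3 stretch holds 2 matches separated by a pair of bases.
TNFAIP3, chr6:137867009-137867258, plus strand: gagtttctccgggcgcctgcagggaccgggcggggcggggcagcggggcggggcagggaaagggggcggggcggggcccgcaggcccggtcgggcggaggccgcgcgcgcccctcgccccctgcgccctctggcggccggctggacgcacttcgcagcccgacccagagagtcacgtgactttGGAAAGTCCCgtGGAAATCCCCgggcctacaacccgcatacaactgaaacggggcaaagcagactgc
NFKBIA, chr14:35404750-35404999, minus strand: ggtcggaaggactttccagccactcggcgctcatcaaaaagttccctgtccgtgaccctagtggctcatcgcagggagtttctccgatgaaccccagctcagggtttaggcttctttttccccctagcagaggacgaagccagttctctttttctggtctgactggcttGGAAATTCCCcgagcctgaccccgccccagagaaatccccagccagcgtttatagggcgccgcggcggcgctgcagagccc
Promoter windows were at hand for 8 of the 10 genes, and 6 of the 8 held a match. RELA, on chromosome 11, and TRAF1, on chromosome 9, had none in their windows; RELB, on chromosome 19, and NFKBIE, on chromosome 6, were not searched. A match was present in 7.09% of the 27305 genes with a window, and in 8.82% of the 9679 tested genes with a window. Of the 6 genes with a match, REL, NFKB1, TNFAIP3 and BIRC3 fell, NFKBIA rose and NFKB2 was not called. Among the 854 tested genes with a match, 23.9% were called higher and 23.0% lower, against 24.5% and 23.0% of tested genes without a match, and the median rlog difference was 0.00 in each set. A match is a description of letters and says nothing of binding in these cells.

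Of the 10 genes, 4 were called lower and 2 higher (60%), and the background is high: limma called 44.4% of all tested genes, 22.1% higher and 22.4% lower. All 10 passed the filter on low values. The median difference over the 10 genes was 0.04, against 0.00 over all tested genes. Control and knockdown libraries did not overlap for 9 of the 10 genes, against 70.7% of tested genes. In the authors' deposited table the same 6 genes passed an adjusted p of 0.05 in the same directions, where 39.4% of genes with an adjusted p did. With 10 genes, these shares are given as a description beside that background and not as a result about the group.

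**Figure D1:**
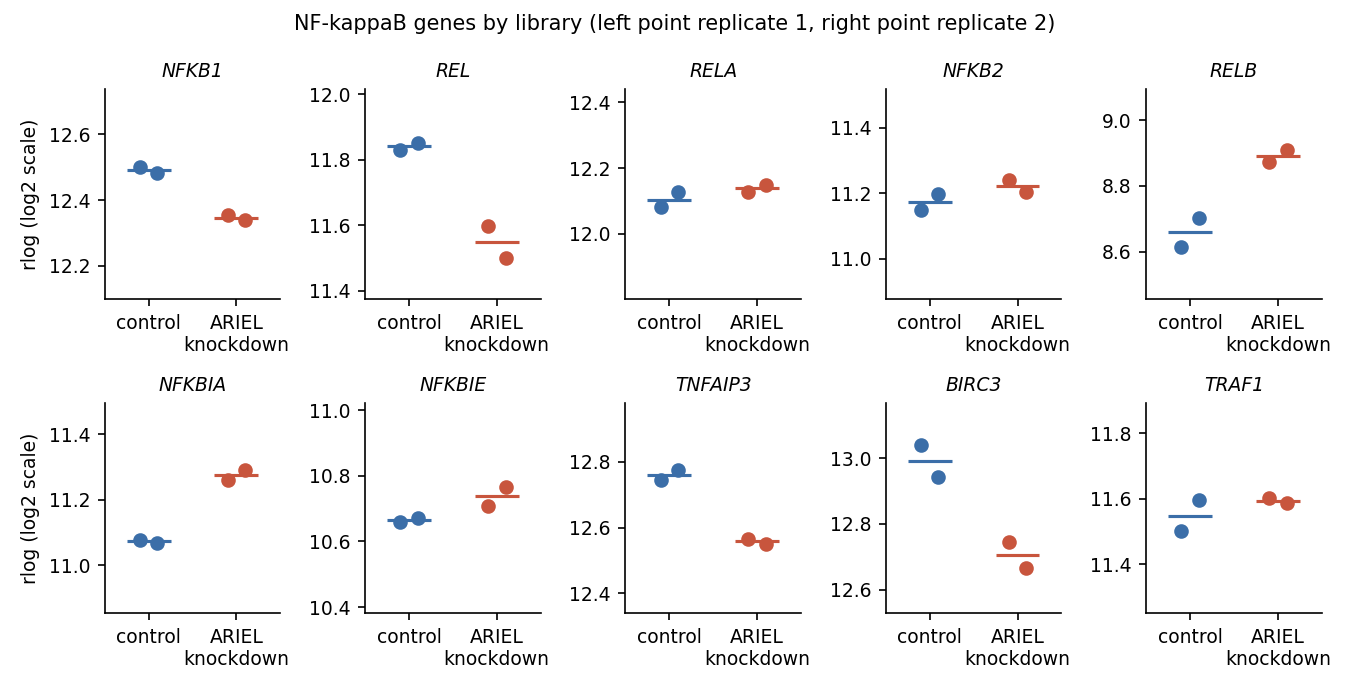
rlog level (log2 scale) of each of the 10 genes in each of the 4 libraries, with points for single libraries of the control and ARIEL knockdown groups and a bar at each group's mean. The knockdown points lie below the control points for REL, NFKB1, TNFAIP3 and BIRC3 and above them for RELB and NFKBIA.

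Among the subunits, REL fell most. REL encodes c-Rel, the subunit most associated with lymphocyte activation and interleukin-2 transcription. Its rlog levels were 11.83 and 11.85 in control and 11.60 and 11.50 in knockdown libraries. Both knockdown libraries were low, and the groups did not overlap. The difference was -0.29 ± 0.04 (SE; 95% interval -0.37 to -0.22; limma adjusted p = 8.5e-13), and the authors' deposited table gave a level 1.45-fold lower.

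NFKB1, which encodes p105 and its processed form p50, fell by less. Its levels were 12.50 and 12.48 in control and 12.35 and 12.34 in knockdown libraries, so each group was tight and the groups stood apart. The difference was -0.14 ± 0.04 (SE; 95% interval -0.21 to -0.08; limma adjusted p = 0.000206), and the fall was 1.20-fold in the authors' deposited table.

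RELB, the partner of the NFKB2 product p52 in the alternative NF-kappaB pathway, went the other way. Its levels were 8.61 and 8.70 in control and 8.87 and 8.91 in knockdown libraries, and both knockdown libraries were high. The rise was 0.23 ± 0.05 (SE; 95% interval 0.14 to 0.33; limma adjusted p = 9.8e-06), or 1.47-fold in the authors' deposited table.

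The other 2 subunits gave no call. RELA encodes p65, the main activating subunit of the canonical pathway, and its levels were 12.08 and 12.13 in control and 12.13 and 12.15 in knockdown libraries, so that the groups touched at this precision. Its difference of 0.03 ± 0.04 (SE) had a 95% interval of -0.04 to 0.11 (limma adjusted p = 0.469). NFKB2, which encodes p100 and p52, had 11.15 and 11.20 in control and 11.24 and 11.20 in knockdown libraries. Its difference was 0.05 ± 0.04 (SE; 95% interval -0.03 to 0.13; limma adjusted p = 0.328). Neither interval shows the absence of a change; each bounds it on the rlog scale.

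NFKBIA encodes IkappaB alpha, the inhibitor that NF-kappaB itself induces and that pulls dimers back out of the nucleus. Its levels were 11.08 and 11.07 in control and 11.26 and 11.29 in knockdown libraries, with both knockdown libraries high. It rose by 0.20 ± 0.04 (SE; 95% interval 0.12 to 0.28; limma adjusted p = 5.4e-06), which the authors' deposited table gave as 1.31-fold. The related inhibitor NFKBIE, which encodes IkappaB epsilon, had 10.66 and 10.67 in control and 10.71 and 10.77 in knockdown libraries. Its difference of 0.07 ± 0.04 (SE; 95% interval -0.01 to 0.16) was not called (limma adjusted p = 0.168).

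Of the 3 target genes, TNFAIP3 and BIRC3 fell and TRAF1 was not called. TNFAIP3 encodes A20, the ubiquitin-editing enzyme that shuts down signalling upstream of IKK. Its levels were 12.75 and 12.77 in control and 12.57 and 12.55 in knockdown libraries, with both knockdown libraries low. It fell by 0.20 ± 0.03 (SE; 95% interval -0.27 to -0.14; limma adjusted p = 4.4e-08), or 1.29-fold in the authors' deposited table.

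BIRC3 encodes cIAP2, a ubiquitin ligase of the tumour necrosis factor receptor complex. It had 13.04 and 12.94 in control and 12.74 and 12.66 in knockdown libraries, and the groups did not overlap although each was spread. The difference was -0.29 ± 0.03 (SE; 95% interval -0.35 to -0.22; limma adjusted p = 7.6e-16), 1.43-fold lower in the authors' deposited table. TRAF1, an adaptor of the same receptor family, had 11.50 and 11.59 in control and 11.60 and 11.59 in knockdown libraries. Its groups overlapped, and the difference of 0.05 ± 0.04 (SE; 95% interval -0.03 to 0.12) was not called (limma adjusted p = 0.344).

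**Figure D2:**
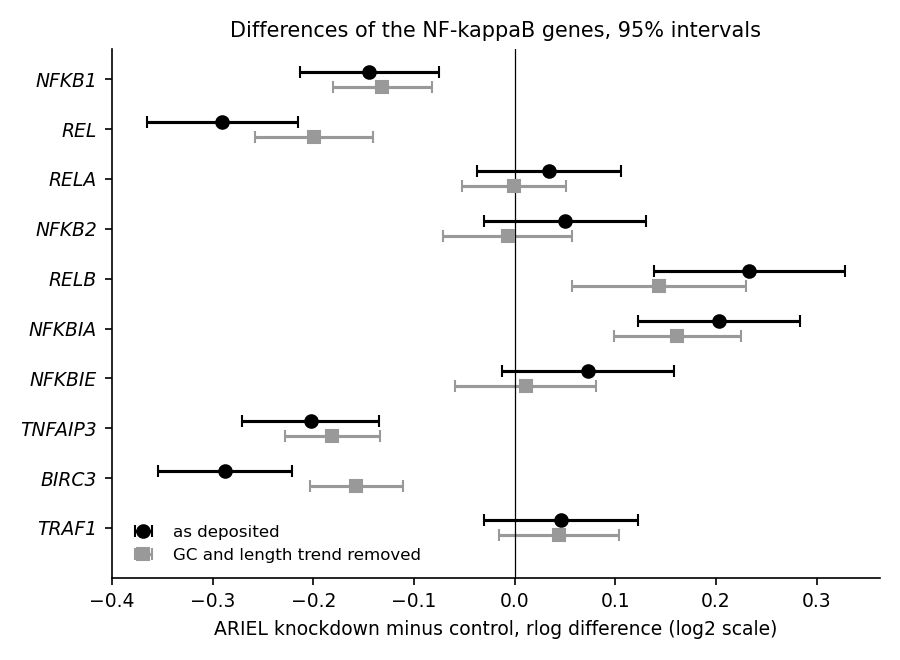
Knockdown minus control rlog difference (log2 scale) of each gene, as points with 95% intervals from limma, for the values as deposited and with the trend on transcript GC content and length removed. The 6 called genes keep intervals that exclude 0 in each version, and BIRC3 moves farthest towards 0, from -0.29 to -0.16.

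A difference in GC content runs through these libraries. Across the 12719 tested genes with transcript properties, Spearman's rho between GC content and the rlog difference between groups was 0.41, and between libraries of the same group it was 0.59 in control and 0.41 in knockdown. Genes are not independent replicates and these coefficients carry no p. The median difference was -0.08 in the lowest decile of genes by GC content and 0.08 in the highest decile. Among the called genes, BIRC3 at 34.8% GC and REL at 38.7% lay low and RELB at 65.4% lay high. TNFAIP3 at 49.5%, NFKB1 at 50.1% and NFKBIA at 53.1% lay nearer the median of tested genes, 49.4%.

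With that trend and the trend on transcript length removed, the 6 calls were kept, where 53.0% of genes were called. The difference of BIRC3 became -0.16 ± 0.02 and that of RELB 0.14 ± 0.04 (SE), each moved by over 1.5 times, with limma adjusted p-values of 3.7e-07 and 0.00486. REL became -0.20 ± 0.03 and NFKBIA 0.16 ± 0.03, while TNFAIP3 at -0.18 ± 0.02 and NFKB1 at -0.13 ± 0.02 moved least. The part of GC content in the remaining differences was not tested.

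**Figure D3:**
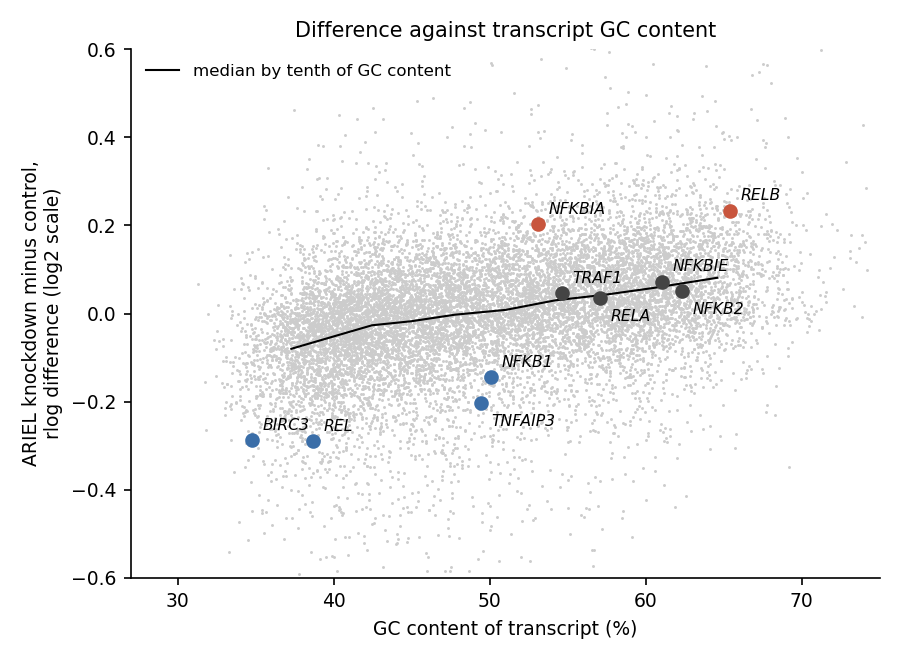
Knockdown minus control rlog difference (log2 scale) against the GC content of the transcript (percent) for 12719 tested genes in grey, with the 10 genes coloured by call and named, and the median of each GC decile as a line. 56 genes lie outside the axes. TNFAIP3 and NFKB1 lie below the line and NFKBIA above it, while RELA, NFKBIE and NFKB2 lie near it.

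A few chosen pairs of genes were also read within a library, as one level minus another. REL minus RELA was -0.25 and -0.28 in control and -0.53 and -0.65 in knockdown libraries. NFKBIA minus TNFAIP3, 2 feedback inhibitors, was -1.67 and -1.71 in control and -1.31 and -1.26 in knockdown libraries. RELB minus REL was -3.22 and -3.15 in control and -2.72 and -2.59 in knockdown libraries. For each of these the groups did not overlap, and an exact permutation test, two-sided, gave p = 0.333, the smallest that 2 against 2 libraries allows. The pairs were not among the planned comparisons and join genes whose own differences are given above. Their separation therefore follows largely from those differences and adds no separate support. For single genes, the groups did not overlap in 70.7% of those tested. After removal of the GC and length trend, the change in REL minus RELA went from -0.32 to -0.20 and that in RELB minus REL from 0.52 to 0.34, each by over 1.5 times, while NFKBIA minus TNFAIP3 went from 0.41 to 0.34.

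BIRC3 lies beside BIRC2, which encodes the closely related cIAP1, with 0 protein-coding genes between them in GENCODE 29. BIRC2 rose by 0.11 ± 0.03 (SE; limma adjusted p = 0.00332), while BIRC3 fell. BIRC2 minus BIRC3 was 0.13 and 0.15 in control and 0.52 and 0.55 in knockdown libraries (exact permutation p = 0.333). With the GC and length trend removed, BIRC2 stood at 0.19. BIRC2 was chosen after its values were seen, and its call was lost without control replicate 2 (difference 0.07, limma adjusted p = 0.143) or without knockdown replicate 1 (0.08, limma adjusted p = 0.135). REL, TNFAIP3 and RELA overlap non-coding genes that have no row in the table, on the same strand for REL and on the opposite strand for TNFAIP3 and RELA. Whether the counting used strand is not given in the sources used here.

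Levels can be compared between genes only per length, and on the rlog scale per kilobase of transcript the 10 genes took an order in the control libraries. BIRC3 was highest at 10.61, followed by TNFAIP3 at 10.52 and NFKB1 at 10.46, while RELA and NFKBIA stood at 10.43 each. The gaps between NFKB1 and RELA and between RELA and NFKBIA were within the larger SD of each pair, while the other gaps were wider. Next came NFKB2 at 9.40, NFKBIE at 9.30, TRAF1 at 8.89, REL at 8.35 and RELB at 7.46. In the knockdown libraries NFKBIA was highest at 10.64, then RELA at 10.47, with BIRC3 at 10.33, NFKB1 at 10.32 and TNFAIP3 at 10.31 indistinguishable by the same measure. The 5 lower places kept their order, with REL at 8.06 and RELB at 7.69. Lengths are those of the longest coding transcript, and another isoform would shift a gene's place.

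The wider pathway was read from 5 lists holding 63 genes besides these 10, of which 62 have a row and 54 were tested. MAP3K14, the kinase of the alternative pathway, was not analysed here. Of the 54, 14 were higher, 15 lower and 25 were not called (53.7% called, median difference 0.00), again beside 44.4% of all genes. With the GC and length trend removed, 14 of 51 were higher and 11 lower, in a fit that called 53.0% of all genes. The share of pathway genes called therefore lay above that of all genes in the deposited values and below it with the trend removed.

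**Figure D4:**
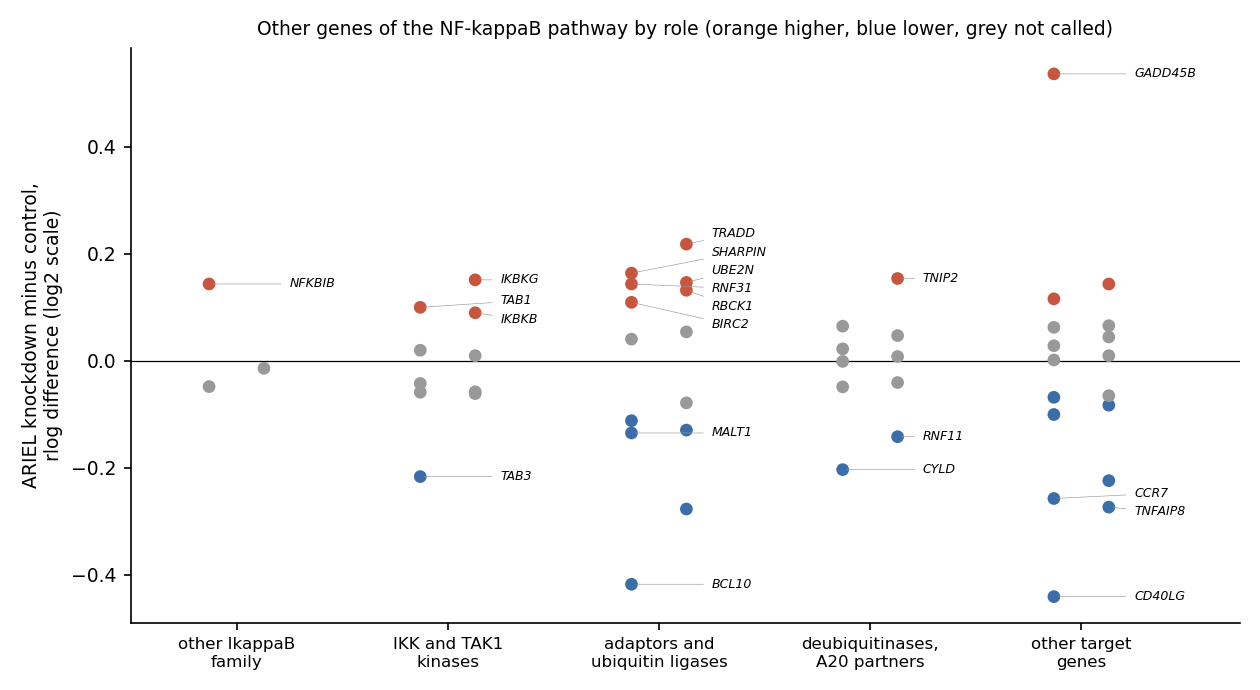
Knockdown minus control rlog difference (log2 scale) of the 54 tested pathway genes, in columns by role, with called genes in colour. Called genes that the text describes are named, except BCL2A1, CFLAR, IL2RA and LTB. GADD45B at 0.54 and CD40LG at -0.44 lie farthest from 0.

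The adaptors and ubiquitin ligases between receptor and IKK had 6 higher and 5 lower of 14 (78.6% called), beside 44.4% of all tested genes. With the GC and length trend removed, 6 of the 14 were higher and 4 lower, beside 53.0% of all genes called. BCL10, an adaptor that forms filaments after antigen receptor engagement, had 11.23 and 11.18 in control and 10.82 and 10.76 in knockdown libraries. It fell by 0.42 ± 0.04 on the rlog scale (SE; limma adjusted p = 1.5e-21), 1.74-fold in the authors' deposited table. MALT1, a protease that binds BCL10, fell by 0.13 ± 0.03 (SE; limma adjusted p = 0.000486). It lost its call with the GC and length trend removed (-0.05, limma adjusted p = 0.0600), while BCL10 was then at -0.37.

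The 3 subunits of the linear ubiquitin ligase, which builds the chains that recruit IKK, were each called higher, as were 22.1% of all tested genes. RNF31 rose by 0.14, RBCK1 by 0.13 and SHARPIN by 0.16, with SE of 0.03, 0.03 and 0.04. Their transcripts held 61.1% to 66.9% GC. With the trend removed, in a fit that called 53.0% of all genes, RNF31 stood at 0.10, RBCK1 at 0.05 and SHARPIN at 0.06. SHARPIN was then no longer called (limma adjusted p = 0.0839). MALT1, RNF31, RBCK1 and SHARPIN were named after their values were seen. TRADD, an adaptor of tumour necrosis factor receptor 1, rose by 0.22 ± 0.04 and UBE2N, the enzyme that conjugates lysine-63 ubiquitin chains with its partner, by 0.15 ± 0.03 (SE). With the trend removed TRADD stood at 0.12, still called.

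Among the IKK and TAK1 kinases and their partners, 3 were higher and 1 lower of 10 (40% called), beside 44.4% of all tested genes. In the fit without the GC and length trend, which called 53.0% of all genes, 3 of 8 were higher and 1 lower. CHUK and MAP3K7, not called as deposited (0.01 and 0.02), were called higher there (0.08 and 0.10, limma adjusted p = 0.00262 and 0.000102). CHUK and MAP3K7 were named after their values were seen. TAB3, a partner of the kinase TAK1, fell by 0.22 ± 0.05, and IKBKG, the regulatory subunit of IKK, rose by 0.15 ± 0.05 (SE). With the trend removed TAB3 stood at -0.14, still called, and IKBKG had no transcript properties for that fit. IKBKB, the catalytic subunit that phosphorylates IkappaB, rose by 0.09 ± 0.03 (SE; limma adjusted p = 0.0188) and TAB1 by 0.10 ± 0.04 (SE; limma adjusted p = 0.0241). The last 2 calls were lost without control replicate 1, knockdown replicate 1 or knockdown replicate 2, and the call of IKBKG without knockdown replicate 2. TAB1 was also not called with the trend removed (0.05, limma adjusted p = 0.125).

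The inhibitor NFKBIB, which encodes IkappaB beta, was the single call among 3 tested IkappaB relatives (33.3%), beside 44.4% of all tested genes. It rose by 0.14 ± 0.04 (SE; limma adjusted p = 0.000568), stood at 0.06 with the trend removed (limma adjusted p = 0.0499), and lost its call without knockdown replicate 2 (0.10, limma adjusted p = 0.111). Of 10 deubiquitinases and A20 partners, 1 was higher and 2 lower (30% called), beside 44.4% of all tested genes. CYLD, which removes lysine-63 and linear ubiquitin chains, fell by 0.20 ± 0.03, RNF11, a component of the A20 complex, fell by 0.14 ± 0.04, and TNIP2, a ubiquitin-binding partner of A20, rose by 0.15 ± 0.04 (SE). With the trend removed CYLD stood at -0.12, RNF11 at -0.10 and TNIP2 at 0.08, each still called. ITCH, named after its values were seen and not called as deposited (0.05), was then called higher (0.13, limma adjusted p = 9.7e-07). In that fit 2 of 9 were higher and 2 lower, beside 53.0% of all genes called.

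Other target genes moved in both directions, with 3 higher and 7 lower of 17 tested (58.8% called), beside 44.4% of all tested genes. With the GC and length trend removed, 2 of the 17 were higher and 4 lower, in a fit that called 53.0% of all genes. BCL2A1, CFLAR, IL2RA and LTB, named after their values were seen, then lost their calls. GADD45B, a stress-response gene that restrains JNK signalling, had 9.80 and 9.82 in control and 10.36 and 10.34 in knockdown libraries. It rose by 0.54 ± 0.05 (SE; limma adjusted p = 6.8e-29), 2.15-fold in the authors' deposited table. CD40LG, the ligand by which T cells help B cells, had 10.12 and 10.15 in control and 9.75 and 9.65 in knockdown libraries. It fell by 0.44 ± 0.05 (SE; limma adjusted p = 3.2e-19), 1.87-fold in the authors' deposited table. TNFAIP8, a regulator of cell death, fell by 0.27 ± 0.03 and the chemokine receptor CCR7 by 0.26 ± 0.05 (SE). TNFRSF9, EBI3 and PTGS2 were listed at 0 in every library.

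Every call of the 6 genes rests on a spread shared between genes of like level. With each gene's own variance, estimated on 2 residual degrees of freedom, 0 of the 10 genes and 0 genes in all passed the adjusted threshold in limma, and the 6 genes had adjusted p-values from 0.0927 to 0.153. All 6 had an unadjusted p under 0.05, as did 4561 genes (31.2%). In bulk RNA, fewer cells of a kind and less RNA per cell cannot be told apart.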

How the data were processed

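RNA was sequenced from 4 Jurkat libraries, 2 per group, grouped by the sample labels. Strand-specific reads, per the labels' protocols, went through tools that the submitters' processing notes list without roles: DESeq2 1.12.4, HTSeq 0.6.1 and STAR 2.5.2a, with build hg19. The authors deposited, per the file headers, log2-scale rlog values by library. The authors also deposited a log2 fold change, its standard error, a score (the test statistic) and a raw and adjusted p-value. Library depth is unknown, and 4365 of 22361 rows are listed at 0 in every library.

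Here limma 3.58.1 (R 4.3.3; lmFit, eBayes with a trend on level) was run on the rlog values with no pseudocount, on all 4 libraries, and adjusted by Benjamini-Hochberg over the 14601 genes whose mean rlog reached log2 of 10. The prior degrees of freedom were infinite, so genes of like level share a spread, and the median SE was 0.04. The script was tested on simulated data. GC content and length come from the longest coding transcript in GENCODE 29, and their trend was removed by splines of 5 degrees of freedom each. Named genes are the 10, the targeted locus and up to 4 called genes of smallest adjusted p per list; those added later are marked. Members and lists were chosen with earlier results of these data known. Tables were handled in Python 3.11.15 with pandas 2.3.3. Alternatives were no filter, a mean rlog of at least 5, no trend on level, a robust fit, own variances, equal medians, quantile normalization, the GC and length trend removed, the replicate block, and leaving out each library. A result among the pathway genes and a look at 3′ UTR words, added after the data were seen, are not reported here.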

Additional observations from a re-analysis of the deposited data

How the results depend on the processing

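The 6 calls among the 10 genes kept direction and adjusted p under 0.05 in limma under each of 13 alternatives that share the spread between genes, and in the authors' deposited table. With own variances, 0 genes were called in all, 0 of the 10 higher or lower, and 0 pathway genes higher or lower. Leaving out each library in turn gave 4225 to 6188 called genes, 4225 without ARIEL knockdown replicate 2; pathway genes called higher numbered 8 to 13, with 8 without that library. With 1 library in a group, it is assumed to vary like the other group. Signs turned for 3 uncalled genes: NFKB2 was at -0.00706 and RELA at -0.00061 with the GC and length trend removed, with and without the replicate block, and TRAF1 ran from -0.00057 without control replicate 1 to 0.0935 without control replicate 2. With the replicate block 7426 genes were called, and 2 of the 10 were higher and 4 lower. Across tested genes, the deviations of the 2 replicate 1 libraries from their group means had a correlation of 0.198. With 2 libraries per group, the replicate 2 deviations mirror these and give the same value. The labels do not say what a number shares, so same-numbered libraries were not treated as paired. The cause of these shifts was not tested. Depth is unknown, so counting error could not be told from other spread between libraries.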
